A study of Mus musculus with 2 samples.

Results

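Kupffer cells, the resident macrophages of the liver, and the monocyte-derived macrophages that can join them were followed through 33 marker genes in the liver RNA of young mice. The genes were chosen by name as markers of these cells, with earlier results of these data known. RefSeq accessions in the deposited tables were matched to them. Of the 33 genes, 32 were matched, among 26440 genes in the tables. Cd68 was not matched and was not analysed here. The SRSF2-KO library came from liver labelled SRSF2-/- and described in the study design as a liver-specific deletion, and the WT library came from wild-type liver. Both were from BALB/c mice at day 11 after birth. SRSF2 is a splicing factor of the serine/arginine-rich family. No label or design text names the promoter that drove the deletion, the liver cells it reached or the number of animals behind each library. There was 1 library per genotype, so no value could be set against the spread between animals, no test was run, and each comparison below describes these 2 libraries.

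Kupffer cells settle in the liver before birth and line the sinusoids, where they take up particles, dying cells, old red cells and bacterial products from the blood. They carry receptors that few other cells have, among them the lectin CLEC4F and the phosphatidylserine receptor TIMD4. When a liver is injured, monocytes that carry the chemokine receptor CCR2 enter from the blood and can become macrophages, and those that take up lipid and cell debris make TREM2, GPNMB and CD9. Markers of resident cells and markers of recruited or lipid-laden cells therefore give different views of the same population.

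Levels are in FPKM, the authors' fragment counts scaled to transcript length and library size. Ratios are plain FPKM ratios of SRSF2-KO over WT unless a log2 ratio is named, and the range after a ratio is the exact (Clopper-Pearson) 95% interval of its reads, which covers counting error only. Log2 ratios were taken on FPKM + 1, which understates the change of genes with low levels. There were 22111605 reads in the SRSF2-KO and 22407743 reads in the WT library. Srsf2, the deleted gene, had 11.8 FPKM in the SRSF2-KO and 27.9 FPKM in the WT library. The libraries also differed in ways that the genotype does not name. Xist, which coats the inactive X chromosome, was at 0.0138 FPKM in the SRSF2-KO and 27.4 FPKM in the WT library, and the Y-linked gene Ddx3y had 859 reads in the SRSF2-KO and 0 in the WT library, so sex and genotype cannot be told apart. Of 12 tested exocrine pancreas genes, 11 were at least 2-fold higher in the SRSF2-KO library, and of 10 tested skeletal muscle genes 9 were. Of all genes with at least 1 FPKM in either library, 19.2% were. All of the tested muscle genes and most of the pancreas genes reached 1 FPKM in the SRSF2-KO library alone. Those genes could be counted only because they were higher there. The 13 matched pancreas genes summed to 937 FPKM in SRSF2-KO and 41.8 FPKM in WT. The 12 matched skeletal muscle genes summed to 97.4 FPKM in SRSF2-KO and 0.881 FPKM in WT, and 7 of the 12 had 0 reads in WT. Their part in the results was not tested. Most ratios lay above 1. The median log2 ratio over 12477 genes with at least 1 FPKM in either library was 0.55, and after centring on it 5.67% of these genes passed 2-fold upward and 6.66% downward.

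Bases that lie just before the start sites of the markers are shown because 2 families of transcription factors are known for acting on macrophage genes, PU.1 throughout the lineage and AP-1 in activated cells. RefSeq promoter windows (assembly GRCm38.p6) were found for 26 of the 33 genes, 29 windows in all, and the 250 bases before each start were searched on both strands for the PU.1 core GAGGAA and for the AP-1 motif TGANTCA. The PU.1 core stood before 13 of the 26 genes (50.0%), against 25.9% of the 27025 genes with a window. AP-1 motifs stood before 6 of the 26 genes (23.1%), against 7.82% of all genes. The E-box CACGTG, bound by the MITF and TFE factors of the lysosomal programme, stood before 1 of the 26 genes, Lgmn (3.85%), against 6.86% of all genes. No PU.1 core overlapped an AP-1 motif in the sequences printed here. Capitals mark both motifs, read on either strand. The first group holds markers of recruited or lipid-laden cells, the second markers of resident cells and the complement C1q chains.
Trem2 (chr17:48346151-48346400, plus strand): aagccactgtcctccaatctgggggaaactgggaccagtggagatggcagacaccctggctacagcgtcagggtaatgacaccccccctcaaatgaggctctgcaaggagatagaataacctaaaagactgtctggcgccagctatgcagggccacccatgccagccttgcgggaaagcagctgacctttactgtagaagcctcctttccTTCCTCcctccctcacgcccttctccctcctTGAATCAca
Mmp12, first window (chr9:7344147-7344396, plus strand): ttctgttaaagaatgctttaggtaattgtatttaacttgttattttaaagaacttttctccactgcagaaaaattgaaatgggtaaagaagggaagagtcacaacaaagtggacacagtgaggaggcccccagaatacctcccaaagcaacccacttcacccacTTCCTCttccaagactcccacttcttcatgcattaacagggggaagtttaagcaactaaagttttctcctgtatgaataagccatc
Mmp12, second window (chr9:7347124-7347373, plus strand): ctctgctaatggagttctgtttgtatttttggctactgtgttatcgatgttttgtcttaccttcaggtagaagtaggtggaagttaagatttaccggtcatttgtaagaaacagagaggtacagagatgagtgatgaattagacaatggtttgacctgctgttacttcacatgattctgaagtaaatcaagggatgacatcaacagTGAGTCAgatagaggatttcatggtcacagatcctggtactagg
Itgam (chr7:128062390-128062639, plus strand): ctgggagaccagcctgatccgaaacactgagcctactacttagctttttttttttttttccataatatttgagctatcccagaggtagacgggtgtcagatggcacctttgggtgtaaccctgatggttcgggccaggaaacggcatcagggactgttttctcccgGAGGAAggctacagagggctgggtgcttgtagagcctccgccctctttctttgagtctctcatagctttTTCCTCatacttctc
Vsig4 (chrX:96293439-96293688, minus strand): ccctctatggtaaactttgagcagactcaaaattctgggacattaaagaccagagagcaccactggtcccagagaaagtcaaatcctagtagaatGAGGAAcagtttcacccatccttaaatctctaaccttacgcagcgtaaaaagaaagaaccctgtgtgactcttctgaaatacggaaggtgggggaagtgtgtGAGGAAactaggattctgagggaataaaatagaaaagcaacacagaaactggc
Marco (chr1:120505025-120505274, minus strand): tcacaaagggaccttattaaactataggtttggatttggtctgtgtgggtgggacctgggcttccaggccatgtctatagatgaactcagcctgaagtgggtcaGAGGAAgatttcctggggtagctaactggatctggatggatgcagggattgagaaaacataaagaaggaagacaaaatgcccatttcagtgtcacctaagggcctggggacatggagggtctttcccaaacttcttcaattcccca
C1qb (chr4:136886201-136886450, minus strand): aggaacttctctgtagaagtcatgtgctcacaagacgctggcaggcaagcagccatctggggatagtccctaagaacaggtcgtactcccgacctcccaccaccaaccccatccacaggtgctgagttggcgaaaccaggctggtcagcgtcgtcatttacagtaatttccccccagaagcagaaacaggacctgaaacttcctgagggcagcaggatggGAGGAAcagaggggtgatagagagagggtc
C1qc (chr4:136892915-136893164, minus strand): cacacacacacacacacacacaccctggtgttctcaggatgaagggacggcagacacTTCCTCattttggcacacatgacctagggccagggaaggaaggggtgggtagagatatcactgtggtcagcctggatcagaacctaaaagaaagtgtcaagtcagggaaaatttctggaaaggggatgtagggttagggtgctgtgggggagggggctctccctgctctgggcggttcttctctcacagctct
Trem2 had a PU.1 core on the minus strand that began 40 bases before the start and an AP-1 motif that began 9 bases before it. Mmp12 had the PU.1 core in its first window and the AP-1 motif in its second. Itgam and Vsig4 each had the PU.1 core at 2 places. Neither motif was found for Clec4f and Timd4 of the resident markers, or for Gpnmb, Ccr2 and Cd9 of the monocyte and lipid-associated markers. Cd163, Fcer1g, Lyz2, Spic and Lgmn also had neither. Every window printed here is one with a match. These matches describe letters only, and binding was not measured.

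The macrophage markers were higher in the SRSF2-KO library in 31 of 32 cases, where 84.5% of all genes were. The 6 monocyte and lipid-associated markers had a median log2 ratio of 2.93, and the 6 resident Kupffer markers 0.81. Itgam, of the former group, lay within the range of the resident markers. Wider lists of monocyte genes and of lipid-associated macrophage genes, described below, each had a median of 1.25. Of 32 markers measured, 21 were at least 2-fold higher, where 19.2% of all genes were, and 1, Fabp5, was at least 2-fold lower, where 2.95% of all genes were. Their median log2 ratio was 1.31, against 0.55 over all genes. On the same scale 6 markers (Mmp12, Gpnmb, Cd14, Trem2, Cd9 and Ctss) were at least 4-fold higher, where 2.76% of all genes were. After centring on all genes, 7 markers stood 2-fold or more above and 1 below, where 5.67% and 6.66% of all genes did. Together the markers took 0.337% of the reads in the SRSF2-KO and 0.154% in the WT library. In whole liver, more cells of a type and more RNA per cell cannot be told apart. A further limit is the filter: 5 of the markers, Gpnmb, Trem2, Itgax, Ccr2 and Mmp12, reached 1 FPKM in the SRSF2-KO library alone, so they could be counted only because they were higher there.

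**Figure D1:**
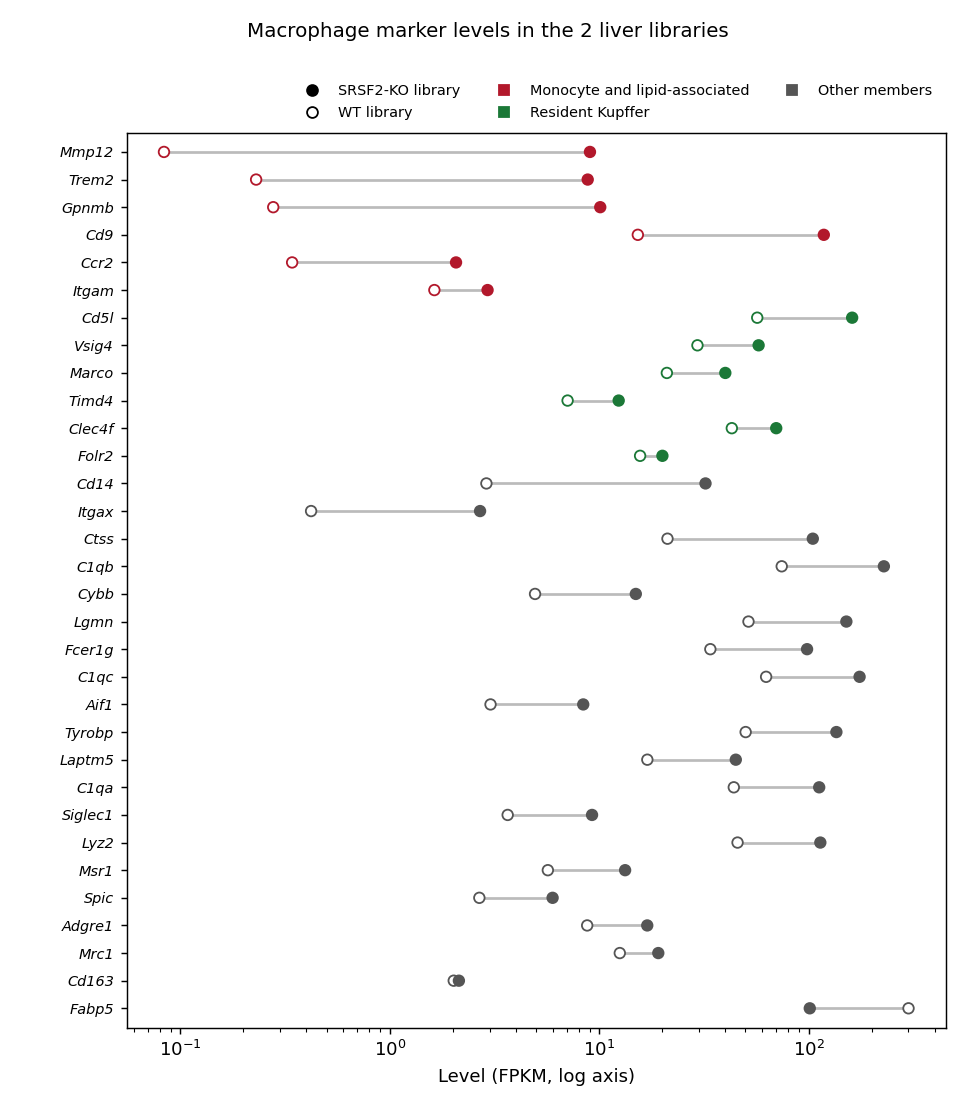
Level of each of the 32 matched markers in FPKM (log axis) in the SRSF2-KO library (filled circles) and the WT library (open circles), with lines joining the 2 values of a gene and colours for its group. Mmp12 shows the widest gap, at 9.04 FPKM in SRSF2-KO and 0.0836 FPKM in WT, and Fabp5, at the bottom, lies lower in SRSF2-KO.

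The resident Kupffer markers were moderately higher. Clec4f, which encodes the glycan-binding lectin of Kupffer cells, had 4410 reads in the SRSF2-KO and 2739 in the WT library, or 70.1 FPKM and 43.0 FPKM, a ratio of 1.63 (1.55 to 1.71). Timd4, the receptor for phosphatidylserine on dying cells, had 12.4 FPKM in SRSF2-KO and 7.07 FPKM in WT, a ratio of 1.75 (1.55 to 1.99). Both intervals held 1.62, the median plain ratio of the tested genes with reads in both libraries, so these defining markers stood where the middle of the transcriptome stood. Vsig4, a receptor for complement C3 fragments, had 57.8 FPKM in SRSF2-KO and 29.5 FPKM in WT, a ratio of 1.96 (1.82 to 2.11). Marco, a scavenger receptor with a collagen-like domain, had 40.05 FPKM in SRSF2-KO and 21.1 FPKM in WT, a ratio of 1.90 (1.77 to 2.05). Folr2, folate receptor beta, came lowest of the 6 with 20.1 FPKM in SRSF2-KO and 15.7 FPKM in WT, a ratio of 1.28 (1.14 to 1.44). It was higher as deposited, but its log2 ratio of 0.33 became -0.22 after centring on all genes. Cd5l, which encodes a secreted protein that keeps macrophages from apoptosis, was the resident marker past 2-fold. It had 162 FPKM in SRSF2-KO and 56.9 FPKM in WT, a ratio of 2.84 (2.72 to 2.96), and its interval lay above those of the other 5. The median log2 ratio of the 6 was 0.81, or 0.26 relative to all genes. After centring 0 of them were 2-fold higher, where 5.67% of all genes were.

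The monocyte and lipid-associated markers stood further apart, at low levels in the WT library. Mmp12, macrophage elastase, had 855 reads in the SRSF2-KO and 8 in the WT library, or 9.04 FPKM and 0.0836 FPKM, a ratio of 108 (54.6 to 251). Trem2, a lipid-sensing receptor that signals through TYROBP, had 265 reads in SRSF2-KO and 7 in WT, or 8.82 FPKM and 0.230 FPKM, a ratio of 38.3 (18.3 to 96.2). Gpnmb, a glycoprotein of phagocytes with loaded lysosomes, had 1008 reads in SRSF2-KO and 28 in WT, or 10.1 FPKM and 0.278 FPKM, a ratio of 36.4 (25.1 to 55.1). The intervals of these 3 genes are wide because of the few WT reads, and even their lower ends lie above the ratio of every resident marker. Cd9, a tetraspanin of lipid-associated macrophages that epithelial and other cells also make, had 118 FPKM in SRSF2-KO and 15.3 FPKM in WT, a ratio of 7.73 (7.03 to 8.51). Ccr2, the receptor by which monocytes follow CCL2 out of the marrow, had 299 reads in SRSF2-KO and 50 in WT, or 2.07 FPKM and 0.342 FPKM, a ratio of 6.06 (4.47 to 8.34). Itgam, the alpha chain of complement receptor CR3 on monocytes and granulocytes, differed from the other 5. It had 2.93 FPKM in SRSF2-KO and 1.63 FPKM in WT, a ratio of 1.79 (1.51 to 2.14), which lies within the range of the resident markers. The median log2 ratio of the 6 was 2.93, or 2.38 relative to all genes. After centring, 4 of the 6 (Mmp12, Gpnmb, Trem2 and Cd9) were past 2-fold upward, where 5.67% of all genes were. Mmp12, Gpnmb and Trem2 reached 1 FPKM in the SRSF2-KO library alone, so the filter admitted them only because they were higher there. The median log2 ratio of the 6 was higher than that of the resident markers by 2.12. This difference depended on the pseudocount, at 2.99 with a pseudocount of 0.1 and 0.72 with 5, because 4 of the 6 genes were under 1 FPKM in the WT library.

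**Figure D2:**
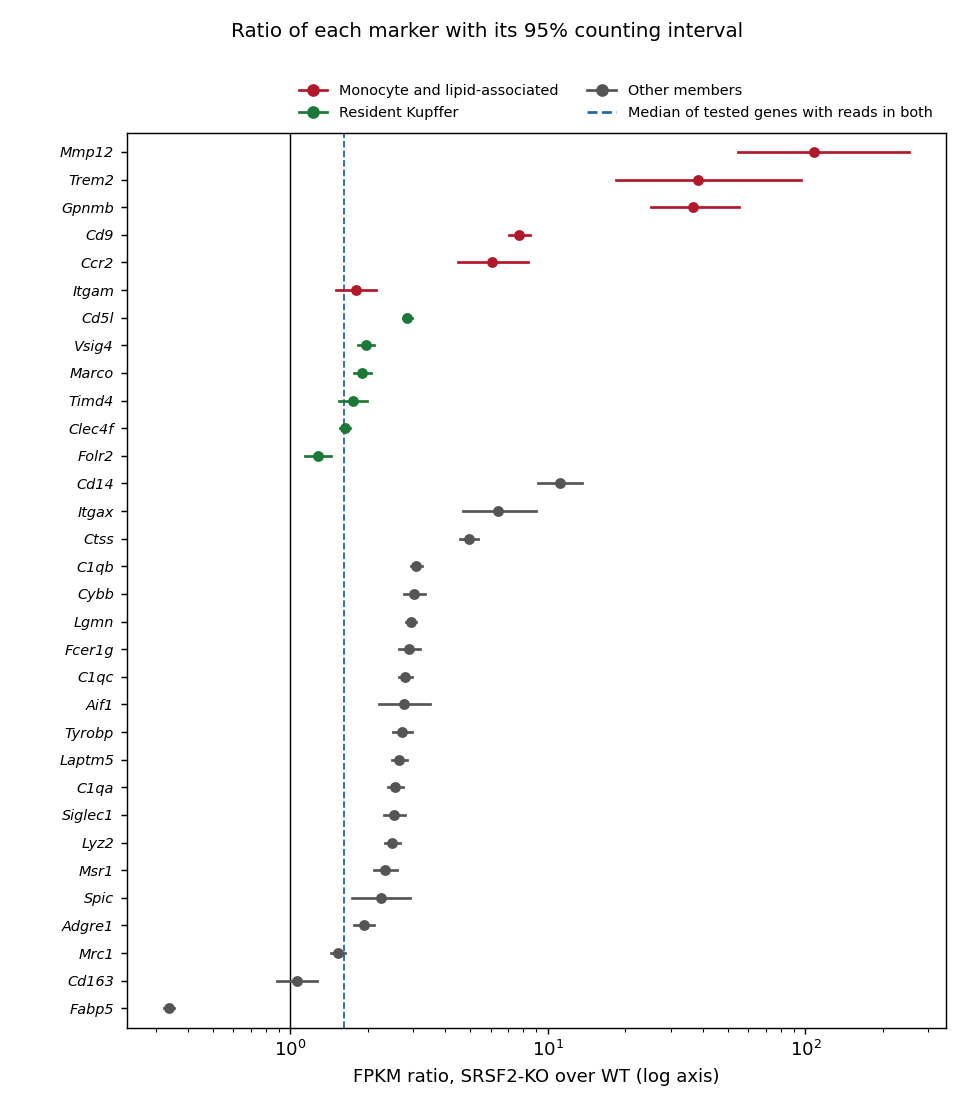
FPKM ratio of SRSF2-KO over WT for each marker (log axis), with bars for the 95% counting interval, a solid line at a ratio of 1 and a dashed line at 1.62, the median of tested genes with reads in both libraries. The intervals of 25 markers lie above the dashed line, 4 hold it and 3 (Folr2, Cd163 and Fabp5) lie below it.

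Set against Clec4f within each library, which removes the scaling of the libraries, 5 of the 6 monocyte and lipid-associated markers differed more between the libraries than any resident marker did. Trem2 stood at 12.6% of the Clec4f level in SRSF2-KO and at 0.535% in WT. Gpnmb stood at 14.4% in SRSF2-KO and 0.646% in WT, and Mmp12 at 12.9% in SRSF2-KO and 0.194% in WT. Cd9 stood at 169% in SRSF2-KO and 35.6% in WT, and Ccr2 at 2.96% in SRSF2-KO and 0.795% in WT. Itgam was the exception, at 4.18% in SRSF2-KO and 3.80% in WT, a difference within the range of the resident markers. The resident markers did not all keep to Clec4f. Cd5l stood at 230.4% in SRSF2-KO and 132% in WT, while Folr2 stood lower in SRSF2-KO, at 28.6% against 36.5% in WT. Vsig4 stood at 82.4% of Clec4f in SRSF2-KO and 68.5% in WT, Marco at 57.1% in SRSF2-KO and 48.95% in WT, and Timd4 at 17.7% in SRSF2-KO and 16.4% in WT. Summed over the genes of each group, the monocyte and lipid-associated markers reached 41.8% of the resident markers in the SRSF2-KO and 10.3% in the WT library. Without Cd9, the most abundant of them, these shares were 9.12% in SRSF2-KO and 1.48% in WT.

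**Figure D3:**
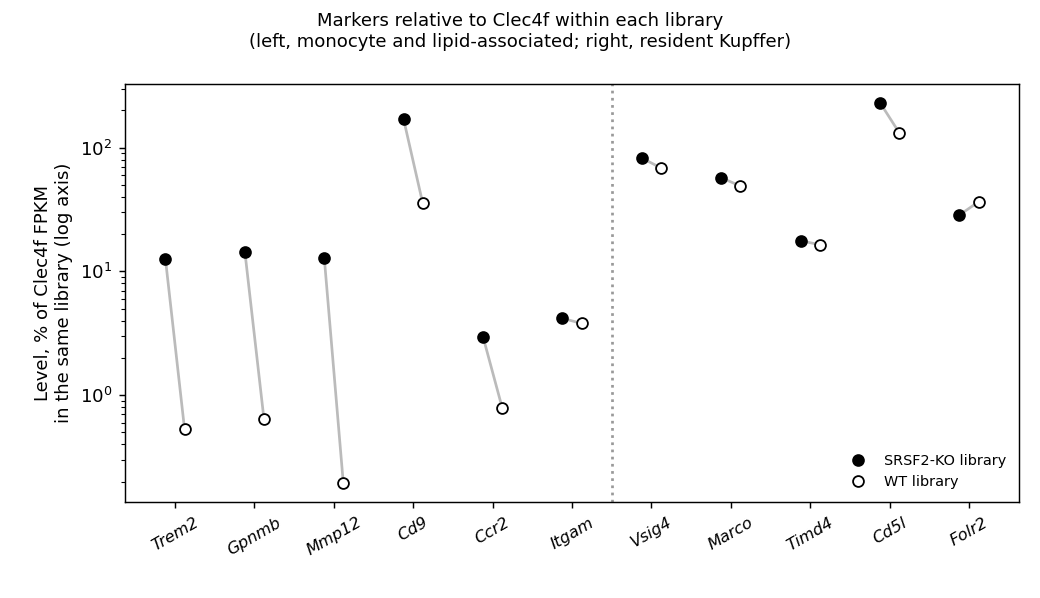
Level of each monocyte and lipid-associated marker (left of the dotted line) and resident marker (right of it) as a percentage of the Clec4f level in the same library (log axis), in the SRSF2-KO library (filled) and the WT library (open). Trem2, Gpnmb and Mmp12 lie above 12% in SRSF2-KO and below 1% in WT, while the values of Itgam, Timd4, Marco and Vsig4 lie close together in the libraries and Cd5l and Folr2 lie apart in opposite directions.

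Genes of the complement protein C1q, which macrophages release and which tags debris and immune complexes for uptake, were among the abundant markers, and C1qb and C1qc had the highest levels of the 32 in the SRSF2-KO library. C1qb had 229 FPKM in SRSF2-KO and 74.5 FPKM in WT, a ratio of 3.07 (2.93 to 3.23). C1qc had 175 FPKM in SRSF2-KO and 62.7 FPKM in WT, and C1qa 112 FPKM in SRSF2-KO and 43.97 FPKM in WT, with ratios of 2.79 (2.65 to 2.95) and 2.56 (2.40 to 2.73). The 3 chains, whose genes are neighbours in the RefSeq annotation, kept the order C1qb, C1qc, C1qa in both libraries. Their proportions differed to a small extent, with C1qb at 2.04 times C1qa in SRSF2-KO and 1.69 times in WT. The intervals of C1qb and C1qa do not overlap. Itgax, the integrin alpha chain of complement receptor CR4 on dendritic cells and activated macrophages, had 285 reads in SRSF2-KO and 45 in WT, a ratio of 6.41 (4.67 to 8.98). Its level was 92.1% of that of its neighbour Itgam in SRSF2-KO and 25.8% in WT.

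Adaptors that carry the activating motif ITAM, through which Fc receptors and TREM2 signal, were near 3-fold higher. Tyrobp, which encodes the adaptor DAP12, had 136 FPKM in SRSF2-KO and 50.1 FPKM in WT, a ratio of 2.71 (2.49 to 2.95). Fcer1g, the gamma chain shared by Fc receptors, had 98.4 FPKM in SRSF2-KO and 33.97 FPKM in WT, a ratio of 2.90 (2.64 to 3.19). Their intervals overlap. The receptor Trem2 stood at 6.49% of the level of Tyrobp in SRSF2-KO and 0.460% in WT. Laptm5, a lysosomal membrane protein of blood cells, had 44.9 FPKM in SRSF2-KO and 16.99 FPKM in WT, a ratio of 2.64 (2.47 to 2.83).

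The 5 markers grouped as lysosomal, proteolytic and antimicrobial enzymes were Lyz2, Ctss, Lgmn, Mmp12 and Cybb. All 5 were at least 2-fold higher, where 19.2% of all genes were. Once centred on all genes 2 of them were, where 5.67% of all genes were. Mmp12 passed the filter through its SRSF2-KO level alone. Ctss, cathepsin S, which trims the invariant chain of MHC class II, had 105 FPKM in SRSF2-KO and 21.2 FPKM in WT, a ratio of 4.94 (4.57 to 5.35). Lgmn, the lysosomal protease legumain, had 152 FPKM in SRSF2-KO and 51.7 FPKM in WT, a ratio of 2.93 (2.81 to 3.07). Cybb, the catalytic subunit of the phagocyte NADPH oxidase, had 14.97 FPKM in SRSF2-KO and 4.94 FPKM in WT, a ratio of 3.03 (2.76 to 3.32). Its partner Cyba kept the same proportion, with Cybb at 13.5% of Cyba in SRSF2-KO and 13.8% in WT. Lyz2, lysozyme of macrophages and granulocytes, had 114 FPKM in SRSF2-KO and 45.8 FPKM in WT, a ratio of 2.48 (2.33 to 2.65). Lyz2 has a near-identical neighbour, Lyz1 (5.84 FPKM in SRSF2-KO and 2.66 FPKM in WT, a gene chosen after its values were seen), and no label says how shared reads were divided.

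Scavenger and pattern receptors had ratios between 1.06 and 11.1. Cd14, the co-receptor for lipopolysaccharide, had 32.2 FPKM in SRSF2-KO and 2.90 FPKM in WT, a ratio of 11.1 (9.18 to 13.6), the highest outside the lipid-associated group. Hepatocytes under inflammation also make Cd14, so its reads cannot be assigned to macrophages. Siglec1, the sialic acid receptor CD169, had 9.25 FPKM in SRSF2-KO and 3.66 FPKM in WT, and Msr1, scavenger receptor A, 13.3 FPKM in SRSF2-KO and 5.69 FPKM in WT, with ratios of 2.53 (2.30 to 2.78) and 2.34 (2.11 to 2.59). Mrc1, the mannose receptor that sinusoidal endothelium also makes, was close to the middle of all genes with 19.2 FPKM in SRSF2-KO and 12.6 FPKM in WT, a ratio of 1.53 (1.44 to 1.62). Cd163, the receptor for haemoglobin bound to haptoglobin, had 252 reads in SRSF2-KO and 241 in WT, or 2.14 FPKM and 2.02 FPKM. Its ratio of 1.06 (0.883 to 1.27) held 1, and its log2 ratio of 0.06 became -0.50 after centring.

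Of the remaining markers, Adgre1, the adhesion receptor F4/80, had 16.98 FPKM in SRSF2-KO and 8.77 FPKM in WT, a ratio of 1.94 (1.77 to 2.12), close to Vsig4 and Marco. Aif1, the actin-binding protein IBA1, had 293 reads in SRSF2-KO and 107 in WT, a ratio of 2.77 (2.21 to 3.49). Spic, a transcription factor of iron-recycling macrophages, had 199 reads in SRSF2-KO and 90 in WT, a ratio of 2.24 (1.74 to 2.90). Fabp5, a fatty acid-binding protein of lipid-associated macrophages, went the other way. It had 101 FPKM in SRSF2-KO and 300.2 FPKM in WT, a ratio of 0.338 (0.323 to 0.353), and was the most abundant of the 32 markers in the WT library. Epithelia and hepatocytes also make Fabp5, and processed copies of the gene exist in the mouse genome, so its reads cannot be assigned to macrophages. Mrc1, Cd14, Cd9, Fabp5 and Lgmn are also made by other cells of the liver or epithelia. Without them, 18 of 27 markers passed 2-fold upward and 0 downward, where 19.2% and 2.95% of all genes did. Fabp5 had been the marker that passed downward. The median log2 ratio of the 27 was 1.29, against 0.55 over all genes. Once centred, 5 passed upward and 0 downward, where 5.67% and 6.66% of all genes did.

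Further genes of the same cells were described from lists drawn up around these markers. Their counts are to be read against all tested genes, of which 19.2% passed 2-fold upward and 2.95% downward, and 5.67% and 6.66% once centred. Of 14 monocyte genes, 8 passed 2-fold upward and 0 downward, with a median log2 ratio of 1.25 (5 and 2 once centred). Ly6c2, a surface protein of inflammatory monocytes whose reads may be shared with the related Ly6c1, had 21.5 FPKM in SRSF2-KO and 2.75 FPKM in WT, a ratio of 7.81 (5.98 to 10.5). Nr4a1, the nuclear receptor of patrolling monocytes, had 8.52 FPKM in SRSF2-KO and 1.01 FPKM in WT, though many stressed cells induce it. Fn1, fibronectin, which hepatocytes make in bulk, had 392 FPKM in SRSF2-KO and 759 FPKM in WT. Among 17 tested genes of lipid-associated macrophages, 11 passed upward and 1, the lipoprotein lipase gene Lpl, downward, with a median of 1.25 (6 and 1 once centred). Lpl, outside the naming rule, had 96.3 FPKM in SRSF2-KO and 202 FPKM in WT. Lgals1 and Lgals3, galectins of macrophages, matrix cells and epithelia, had 267 FPKM and 61.7 FPKM in SRSF2-KO, against 25.9 FPKM and 8.45 FPKM in WT. Capg, an actin-capping protein of phagocytes, had 12.2 FPKM in SRSF2-KO and 1.22 FPKM in WT. Apoe, the most abundant gene on this list, was lower in SRSF2-KO. It had 6420 FPKM in SRSF2-KO and 7864 FPKM in WT, a ratio of 0.816 (0.812 to 0.821).

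Fc receptors that use the Fcer1g chain were higher together. Fcgr1 had 14.7 FPKM in SRSF2-KO and 2.52 FPKM in WT, a ratio of 5.83 (4.95 to 6.89), and Fcgr4 had 29.6 FPKM in SRSF2-KO and 5.13 FPKM in WT, a ratio of 5.77 (4.90 to 6.83). Fcgr3 had 35.3 FPKM in SRSF2-KO and 9.59 FPKM in WT, a ratio of 3.68 (3.31 to 4.12). Fcgr2b, the inhibitory receptor that sinusoidal endothelium also carries, had 46.8 FPKM in SRSF2-KO and 31.4 FPKM in WT, and Fcgrt, the neonatal Fc receptor, 76.2 FPKM in SRSF2-KO and 71.6 FPKM in WT. Of 14 tested genes of ITAM signalling, 5 passed 2-fold upward and 0 downward (1 and 0 once centred). Clec7a, the beta-glucan receptor dectin-1, led them with 37.5 FPKM in SRSF2-KO and 2.996 FPKM in WT, a ratio of 12.5 (10.8 to 14.7).

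Regulators of the lineage and signals of its niche were closer to the middle, with a median log2 ratio of 0.73 over 20 tested genes. Of these, 6 reached 2-fold upward and 0 downward, and 0 in either direction once centred. Csf2rb, a receptor chain for GM-CSF with the close paralog Csf2rb2, had 13.4 FPKM in SRSF2-KO and 3.96 FPKM in WT, and Irf8, a transcription factor of monocytes and dendritic cells, 12.4 FPKM in SRSF2-KO and 4.18 FPKM in WT. Spi1, which encodes PU.1, is on that list but was named after its values were seen. It had 22.6 FPKM in SRSF2-KO and 8.94 FPKM in WT, a ratio of 2.53 (2.23 to 2.88). Lysosomal genes in general had a median of 0.74 over 24 genes, and 5 passed 2-fold upward and 0 downward (0 and 0 once centred). The share that passed upward was near the 19.2% of all genes. Grn, progranulin, had 177 FPKM in SRSF2-KO and 66.0 FPKM in WT.

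Of 13 tested chemokines and activation genes of macrophages, 7 passed 2-fold upward and 0 downward (3 and 1 once centred). Ccl2, the ligand of CCR2, had 294 reads in SRSF2-KO and 10 in WT, a ratio of 29.8 (15.95 to 62.7). Cxcl10, an interferon-induced chemokine, had 51.3 FPKM in SRSF2-KO and 1.88 FPKM in WT, a ratio of 27.3 (20.8 to 36.4). Both can also be made by hepatocytes and stromal cells. Arg1, the most abundant gene on this list, was lower in SRSF2-KO. It had 282 FPKM in SRSF2-KO and 389 FPKM in WT, a ratio of 0.725 (0.707 to 0.743). Of 14 genes of Toll-like receptors and endotoxin sensing, 7 passed 2-fold upward and 1 downward (0 and 1 once centred). Tlr8 had 3.51 FPKM in SRSF2-KO and 0.627 FPKM in WT, while Lbp, the plasma protein that hands lipopolysaccharide to CD14, had 41.7 FPKM in SRSF2-KO and 156 FPKM in WT.

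Genes of oxidant production, dead cell uptake and iron recycling had medians near that of all genes, at 0.72, 0.63 and 0.73. Of 7 NADPH oxidase subunits, 2 passed 2-fold upward and 0 downward (1 and 0 once centred), with Cyba at 111 FPKM in SRSF2-KO and 35.9 FPKM in WT. Of 14 tested genes of dead cell uptake, 5 passed upward and 0 downward (2 and 1 once centred). Mfge8, which bridges dying cells to phagocytes, had 72.7 FPKM in SRSF2-KO and 17.2 FPKM in WT. Of 10 iron recycling genes, 5 passed upward and 0 downward (3 and 2 once centred), with haem oxygenase Hmox1 at 100.2 FPKM in SRSF2-KO and 29.5 FPKM in WT. Hpx, the most abundant gene on the iron list, was lower in SRSF2-KO. It had 3675 FPKM in SRSF2-KO and 4338 FPKM in WT, a ratio of 0.847 (0.841 to 0.853).

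Markers of other cells moved with these genes in part. Of 14 pan-leukocyte genes, 9 passed 2-fold upward and 0 downward, where 19.2% and 2.95% of all genes did (1 and 0 once centred, where 5.67% and 6.66% did), with a summed level of 227 FPKM in SRSF2-KO and 82.7 FPKM in WT. Dendritic cell and class II genes had 6 of 11 higher and 0 lower, or 5 and 0 once centred (398 FPKM summed over the 14 matched genes in SRSF2-KO and 119 FPKM in WT). H2-Aa, an MHC class II chain, had 73.8 FPKM in SRSF2-KO and 11.3 FPKM in WT, a ratio of 6.51 (5.78 to 7.34). Stellate cell and fibroblast genes had 10 of 15 higher and 0 lower, or 3 and 1 once centred (671 FPKM summed in SRSF2-KO and 247 FPKM in WT), and bile duct genes 5 of 8 higher and 0 lower, or 3 and 0 once centred (131 FPKM summed over the 10 matched genes in SRSF2-KO and 53.4 FPKM in WT). None of the matched genes on these 4 lists had 0 reads in either library, and their part in the results was not tested.

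Genes of neutrophils, lymphocytes, red cells and endothelium had lower medians than the macrophage markers. The counts of these lists, and of the other lists in this paragraph, are to be read against all tested genes. Of those, 19.2% were at least 2-fold higher and 2.95% lower. Neutrophil and granulocyte precursor genes had 4 of 14 at least 2-fold lower and 1 higher, with a median log2 ratio of -0.66. Once centred, 8 were lower and 0 higher, where 6.66% and 5.67% of all genes were. Prtn3, proteinase 3 of granulocyte precursors, had 1.53 FPKM in SRSF2-KO and 24.2 FPKM in WT, while Lcn2, also made by hepatocytes, had 896 FPKM in SRSF2-KO and 345 FPKM in WT. B cell genes had a median of -0.46 over 6 tested genes and T and NK cell genes 0.26 over 8, with 0 and 1 at least 2-fold higher and none lower. Once centred, 3 B cell genes were lower and 0 T and NK cell genes were in either direction. Erythroid genes had a median of -0.14 over 6 tested genes, with 0 past 2-fold and 2 lower once centred. Sinusoidal endothelial genes had a median of 0.34, or -0.21 relative to all genes, and 0 of 16 reached 2-fold in either direction. Hepatocyte genes had 8 of 15 at least 2-fold lower and 2 higher, or 11 and 1 once centred (65861 FPKM summed in SRSF2-KO and 138905 FPKM in WT). Mast cell and platelet genes were mostly below 1 FPKM, with 2 of 10 and 4 of 9 tested and 1 of each list, Hdc and Pf4, at least 2-fold higher.

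**Figure D4:**
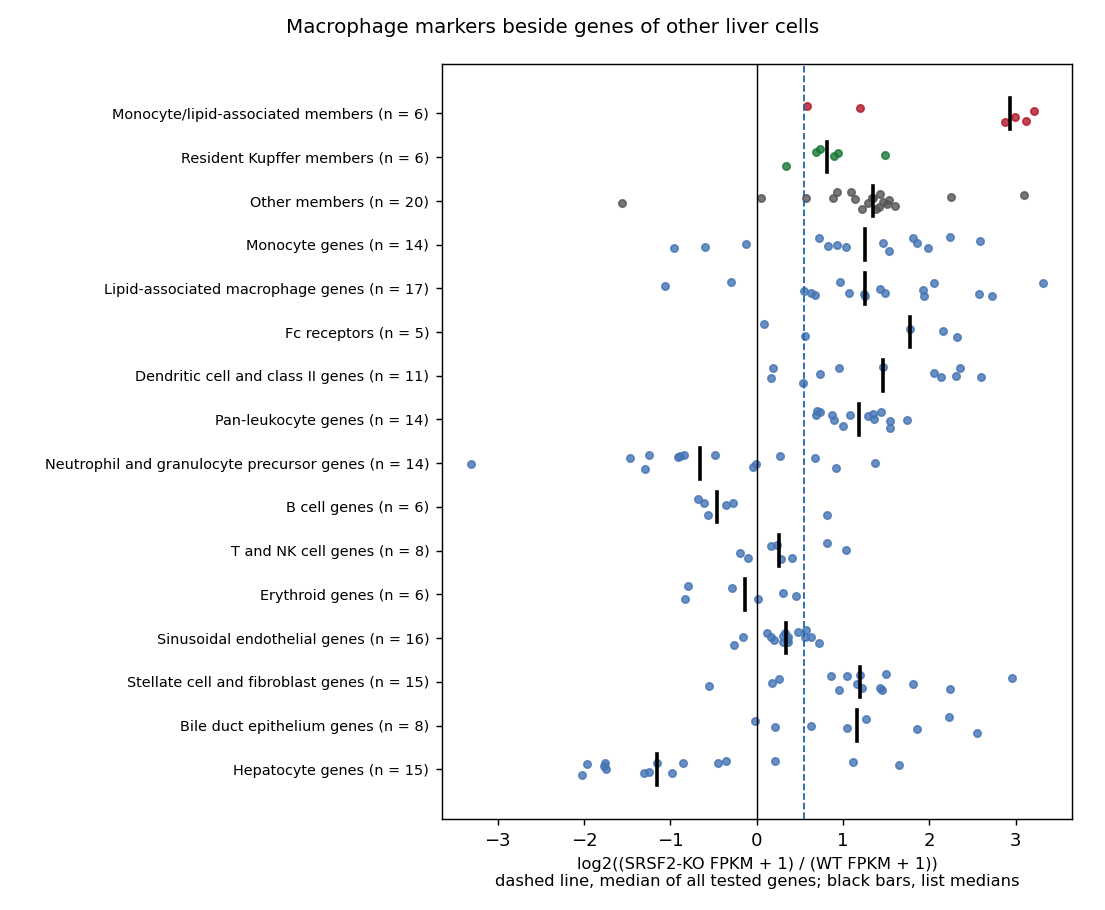
Log2((SRSF2-KO FPKM + 1) / (WT FPKM + 1)) of the markers in their 3 groups and of the genes of 13 further lists, 1 point per gene, with black bars at list medians and a dashed line at 0.55, the median of all tested genes. Medians are 2.93 for the monocyte and lipid-associated markers and 0.81 for the resident markers, while sinusoidal endothelial genes lie near 0.34 and neutrophil genes near -0.66.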

How the data were processed

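RNA of SRSF2-KO and WT liver, 1 library each, was sequenced on an Illumina HiSeq2000. The submitters' processing notes name Bowtie 0.12.2 and the mouse build mm9. No label or header names the counting program, annotation release, use of strand or treatment of reads with several matches, so values of overlapping or near-identical genes are uncertain. Per the file headers, the authors deposited a read count and an FPKM per RefSeq accession, and the deposited counts are whole numbers.

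Lines of the same accession and accessions of the same gene were summed. Names came from RefSeq (GRCm38.p6, names only) and GENCODE tables and were found for 23419 of 26449 accessions. Genes with at least 1 FPKM in either library were compared by log2 ratios with a pseudocount of 1 and a 2-fold rule, and read ratios were scaled by 1.012, what a read was worth in FPKM in the SRSF2-KO relative to the WT table. Intervals reflect counting error alone and treat reads as independent. Amplified reads are no independent molecules, so the intervals may be too narrow. With 1 library per genotype no p-value was computed. The code was tested on simulated data.

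The markers and lists were chosen with earlier results of these data known. All 33 markers are named, and from each other list up to 4 genes: the most abundant and the 3 whose log2 ratios lay farthest from 0. The alternatives were other pseudocounts, filters, scalings, size rules and ways to sum accessions, and the closing section gives their effect. Tools were Python 3.11.15, pandas 2.3.3, numpy 2.4.6, matplotlib 3.10.9 and scipy 1.17.1.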

Additional observations from a re-analysis of the deposited data

How the results depend on the processing

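The median log2 ratio of the markers was 1.31 as reported. It was 0.93 with a pseudocount of 5, 0.76 after centring on all genes, 0.99 after rescaling without the 20 most abundant genes, and 0.50 after centring on the 6 resident markers, an alternative chosen after seeing the data. Of 21 markers at least 2-fold higher, 7 passed after centring on all genes, 6 with a 4-fold rule and 6 after centring on the resident markers. With the other alternatives between 16 and 27 passed. The share of all genes that passed also moved. It was 19.2% as reported, 5.67% after centring, 2.76% with the 4-fold rule and 3.67% after centring on the resident markers. It was 6.3% with a pseudocount of 5 and 9.99% without the 20 most abundant genes, with 16 markers each. With the 1.5-fold rule, which gave 27 markers, it was 47.4%. The count at least 2-fold lower was 1, and 0 with a 4-fold rule or without Mrc1, Cd14, Cd9, Fabp5 and Lgmn (a set chosen after seeing the data). The monocyte and lipid-associated median exceeded the resident median by 2.12, by 2.99 with a pseudocount of 0.1 and by 0.72 with 5, and without Cd9 by 2.18. For single markers the sign changed with Cd163 after centring (-0.50) and without the 20 most abundant genes (-0.16), with Folr2 after centring (-0.22), and, after centring on the resident markers, with Clec4f (-0.12), Timd4 (-0.082), Mrc1 (-0.24), Itgam (-0.24), Folr2 (-0.48) and Cd163 (-0.76). The cause of these changes was not tested beyond what the settings themselves remove. Leaving out the exocrine pancreas and skeletal muscle genes from the scaling, added after seeing the data, gave a median of 1.33 and 21 markers higher. No paired analysis was possible because each genotype has 1 library, and no replicate could be left out. Depth limits Mmp12, Trem2 and Gpnmb, with 8, 7 and 28 reads in the WT library.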
